A study of Oryctolagus cuniculus with 27 samples.

Results

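Genes of the sarcomere and of cardiac calcium handling were followed in the aortic valve, ascending aorta and myocardium of the left ventricle in rabbits. The list names 37 genes that heart muscle uses to contract, to release and recover calcium, and to buffer energy and oxygen, together with the peptide gene NPPB. The chamber-specific myosins, the atrial light chains and NPPA were not members. Of the 37, 34 were found in the count tables by symbol and 1, TNNT2, by its gene number, which leaves 35 of the 31346 genes in each table. TNNI3 and CKM had no entry under either and were not analysed here.

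All animals were wild-type male New Zealand rabbits, and no age was stated. A single aortic valve cusp per animal was taken after 2, 4 or 7 weeks of feeding with added cholesterol (1%) and ergocalciferol, a form of vitamin D (3500 IU per kg per day), with 4 libraries at each duration, and from animals on normal chow with 4 libraries. Diet aorta had 2 libraries and chow aorta 3, and diet myocardium and chow myocardium had 3 each, with no duration in their labels. Animal numbers within library names show that the 3 diet myocardium libraries came from 7-week valve animals, 1 diet aorta from a 2-week valve animal, and 2 chow myocardium libraries from chow valve animals. The titles place 3 chow valves at 7 weeks and 1 at 2 weeks, whereas the design text pools chow animals of 2 and 4 weeks, so the time of the chow valves is uncertain. Chow groups are called controls below, and the values of a group are listed in the order of replicate 1 onwards.

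A sarcomere is the repeating contractile unit of striated muscle. Thick filaments of myosin pull on thin filaments of actin when calcium binds troponin, titin spans from the M-band to the Z-disc, and the Z-disc anchors the thin filaments and carries stretch-sensing proteins. Calcium leaves the sarcoplasmic reticulum through the ryanodine receptor RYR2 and is pumped back by SERCA2, encoded by ATP2A2. Valve cusps are built mainly of interstitial and endothelial cells but attach to a root that borders on ventricular and atrial muscle, and the wall of the aorta is built of smooth muscle, which uses some of the same genes.

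Libraries held 8.46 to 19.999 M counts, where M stands for 1000000, and levels are given as counts per M of the library total (CPM). CPM are not divided by gene length, so a level is compared between libraries and not between genes. Interstitial, smooth muscle and ventricular markers were each present in the tissue that should hold them, though not only there. The interstitial and fibroblast markers also summed to 1.12% to 1.51% of the aorta libraries, within the range of the valves. Smooth muscle markers summed to 0.888% to 4.56% of the valve libraries. Valve interstitial and fibroblast markers summed to 0.757% to 2.57% of the counts of the 16 valve libraries, smooth muscle markers to 5.39% to 6.53% of the 5 aorta libraries, and the ventricular markers MYH7, MYL2 and MYL3 to 5.54% to 7.86% of the 6 myocardium libraries. Among the myocardium libraries control replicate 3 stood apart in its profile over all genes. The 2 diet aortas were the most alike pair within any of the tissues. The median chi-square of their counts over genes was 1.046, where sampling noise gives 0.455. The next pair, control myocardium replicates 1 and 2, stood at 1.99. An excess over sampling noise cannot show that the diet aortas are independent samples. Their library names carry different animal numbers, and they were counted as 2 samples. The 7-week valves carry the lowest sample numbers, and whether they were prepared or sequenced apart was not stated, so such a batch and the 7-week group cannot be told apart. The p-values set a difference against the spread estimated between these libraries. The main fits between tissues treat libraries of a shared animal as independent.

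The 35 genes together took 1.59, 0.954, 3.16 and 1.94% of the counts in the control valves, 0.530, 0.880, 0.613 and 0.622% at 2 weeks, 2.77, 0.932, 0.488 and 1.55% at 4 weeks and 0.893, 3.13, 1.72 and 2.74% at 7 weeks. Libraries of a group differed by up to several fold, except at 2 weeks, where all 4 were low. In the aorta the share was 0.565 and 0.548% on the diet, against 0.516, 0.589 and 0.516% in controls, of which TPM1, TCAP, ATP2A2 and MYOM1 made up most. In the myocardium it was 5.46, 6.57 and 6.08% on the diet, against 6.53, 6.53 and 4.50% in controls. In bulk tissue, more muscle cells and more of these RNAs per muscle cell cannot be told apart.

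Markers of ventricular and of atrial muscle, none of them members, took different courses over the valve groups. The ventricular markers summed to 1.24, 0.559, 2.60 and 1.46% of counts in control valves, 0.0329, 0.148, 0.105 and 0.161% at 2 weeks, 0.103, 0.588, 0.0956 and 0.520% at 4 weeks and 0.566, 3.00, 0.117 and 2.04% at 7 weeks. The 5 atrial markers NPPA, MYL4, MYL7, SLN and MYH6 summed to 0.0157, 0.00475, 0.0870 and 0.0175% in control valves, 0.0371, 0.253, 0.0166 and 0.0300% at 2 weeks, 2.21, 0.0691, 0.0678 and 0.533% at 4 weeks and 0.134, 0.294, 1.04 and 0.0941% at 7 weeks. The atrial share was above the ventricular share in 5 diet valves, namely 2-week replicates 1 and 2, 4-week replicates 1 and 4 and 7-week replicate 3, and in no control. Without MYH6 the atrial share was above the ventricular share only in 4-week replicate 1, at 0.758%, and 7-week replicate 3, at 0.481%. Control myocardium held 0.0230, 0.308 and 0.111% with MYH6, and 0.000201, 0.000322 and 0.000188% without it. Among valves the atrial share was highest in 4-week replicate 1 and 7-week replicate 3, with or without MYH6. In 2-week replicate 3 SLN was at 0 and NPPA at 0.0652 CPM. MYH6 was present in every control valve, at 147, 43.4, 856 and 163 CPM, while NPPA stood at 0.285, 1.15, 2.59 and 0.975 CPM and SLN at 0.214, 0.320, 0.518 and 0.162 CPM there.

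**Figure D1:**
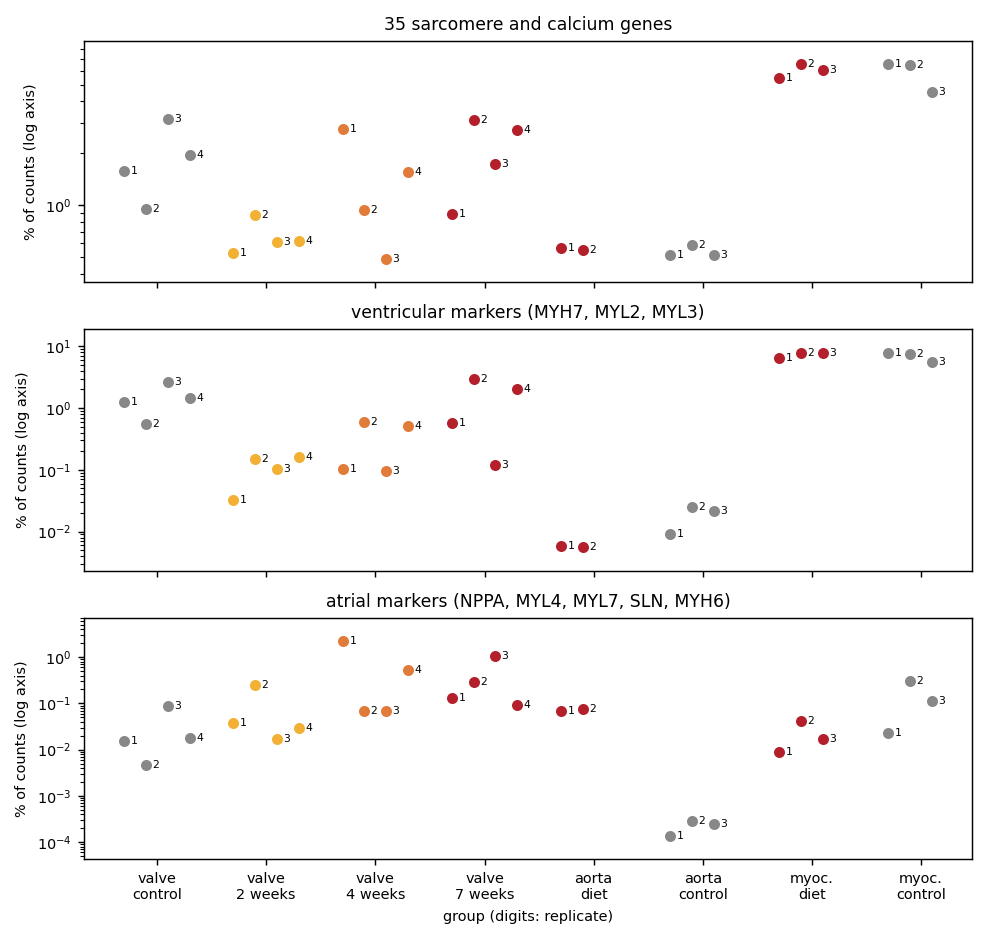
Share of a library's counts (%, log axis) taken by the 35 sarcomere and calcium handling genes, by 3 ventricular markers and by 5 atrial markers, 1 point per library with its replicate number. In 4-week valve replicate 1 and 7-week valve replicate 3 the atrial share (2.21% and 1.04%) lies above the ventricular share (0.103% and 0.117%).

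Among controls, the list ordered the tissues as myocardium, then valve, then aorta. In myocardium against valve, 33 of the 35 genes were higher by edgeR's quasi-likelihood test at an adjusted p under 0.05, with Benjamini-Hochberg adjustment over all genes, and 0 were lower, where 22.5% of all genes tested were higher. The median log2 fold change was 2.03 for the 35 genes and 0.0016 for all genes tested. In valve against aorta, 29 of 35 were higher and 0 lower, where 13% of all genes were higher, with a median log2 fold change of 5.34. In myocardium against aorta, 34 of 35 were higher, where 25.8% of all genes were higher, with a median of 7.33. The 3 comparisons share control libraries and are not independent.

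The valve level as a percentage of the myocardial level was lowest in control valves for MYOM2, RYR2, MYH8 and UNC45B. Control valve replicate 3 weighed on these means: without it TTN, at 10.3%, stood among the lowest 4 and MYH8 did not, and MYOM2 stood at 8.78%. Without control valve replicate 4, MYH8 stood at 10.4%. These omissions were added after the data were seen. MYOM2, which encodes the M-band protein myomesin 2, had 4432, 3416 and 1063 CPM in control myocardium, against 364, 174, 1005 and 244 CPM in control valves, and its valve mean was 15.04% of its myocardial mean. RYR2 had 1435, 1403 and 873 CPM in control myocardium, against 156, 88.8, 384 and 157 CPM in control valves, a mean of 15.9%. UNC45B, the myosin chaperone, had 453, 483 and 238 CPM in control myocardium, against 50.6, 20.3, 132 and 73.5 CPM in control valves, a mean of 17.6%. The myocardial libraries of these 3 genes all lay above the valve libraries. MYH8, the perinatal myosin heavy chain, had only 2.21, 0.873 and 1.12 CPM in control myocardium, against 0.142, 0, 0.296 and 0.487 CPM in control valves, a mean of 16.5%, at a level where 3 counts correspond to 0.192 to 0.244 CPM in the control valves. The log2 fold changes of myocardium over valve were 3.12 ± 0.74 (adjusted p = 0.00624) for MYOM2, 3.02 ± 0.48 (adjusted p = 0.000733) for RYR2, 2.87 ± 0.56 (adjusted p = 0.00233) for UNC45B and 2.96 ± 0.82 (adjusted p = 0.0134) for MYH8.

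At the other end, NPPB, which encodes the natriuretic peptide BNP that stretched heart muscle secretes, had 442, 208 and 48.8 CPM in control myocardium, against 139, 51.9, 201 and 449.6 CPM in control valves. Its groups overlapped fully, with a log2 fold change of 0.54 ± 0.77 (adjusted p = 0.591), and the valve mean was 90.2% of the myocardial mean. That percentage rested on single libraries, with 164% without control myocardium replicate 1 and 56.0% without control valve replicate 4. TPM1, the tropomyosin that smooth muscle and other cells also use, had 3853, 3609.6 and 3491 CPM in control myocardium, against 2253, 2228, 2843 and 2328 CPM in control valves. Its myocardial libraries all lay higher, by 0.98 ± 0.23 (adjusted p = 0.00636) on the log2 scale, and 66.1% of the myocardial level was present in valve. ANKRD1, a stretch-responsive titin-binding repressor, had 3622, 3347 and 1843 CPM in control myocardium, against 1060.3, 506, 2620.5 and 1513 CPM in control valves. SMPX, a small protein of striated muscle, had 243, 244 and 269.8 CPM in control myocardium, against 95.6, 41.5, 199.8 and 129.9 CPM in control valves. Control valve replicate 3 reached the range of the myocardium for ANKRD1, whose value of 1.41 ± 0.54 (adjusted p = 0.0546) did not pass. With the animal as a block in limma voom, since 2 of the animals gave both tissues, it was 1.71 ± 0.55 (adjusted p = 0.0231) and passed, which made 34 of 35 genes. SMPX was higher in all myocardial libraries, by 1.45 ± 0.46 (adjusted p = 0.0259) on the log2 scale.

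The member of each role with the highest mean CPM in control myocardium, a ranking in which gene length also counts, showed the same order of tissues by group mean. By the test ANKRD1 and NPPB, described above, did not pass for myocardium over valve, nor did ATP2A2 for valve over aorta. Titin (TTN) had 7885, 8408 and 4297 CPM in control myocardium, 856, 369, 2882 and 891 CPM in control valves and 14.5, 27.9 and 30.6 CPM in control aortas. Cardiac actin (ACTC1) had 6245, 7043 and 2985 CPM in control myocardium, 1474, 731, 3727 and 2275 CPM in control valves and 31.02, 28.8 and 41.3 CPM in control aortas. The tissues did not overlap for titin, whereas the actin level of control valve replicate 3 lay within the range of the myocardium. The calcium pump gene ATP2A2 had 4081, 5087 and 1954 CPM in control myocardium, 998, 508, 2098 and 802 CPM in control valves and 453, 722 and 419 CPM in control aortas. CKMT2, the mitochondrial creatine kinase of striated muscle, had 1073, 1342 and 998 CPM in myocardium, 183, 69.2, 534 and 386 CPM in valves and 2.54, 4.86 and 4.86 CPM in aortas of controls. RBM20, the regulator of titin splicing, had 207, 212 and 153 CPM in myocardium, 36.8, 18.3, 75.2 and 28.7 CPM in valves and 6.52, 5.77 and 14.02 CPM in aortas of controls. For CKMT2 and RBM20 the tissues did not overlap, whereas ATP2A2 in valves overlapped with both other tissues.

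By the test, 6 genes were not higher in control valve than in control aorta. They were ATP2A2 (0.95 ± 0.54, adjusted p = 0.223), its inhibitor phospholamban PLN (0.029 ± 0.57, adjusted p = 0.978), TPM1 (-0.39 ± 0.23, adjusted p = 0.253), the M-band gene MYOM1 (0.20 ± 0.39, adjusted p = 0.742), the titin cap gene TCAP (0.40 ± 0.29, adjusted p = 0.34) and MYH8 (2.66 ± 1.38, adjusted p = 0.19). The control aorta held 79.3% of the myocardial mean of TPM1, 30.5% of TCAP, 28.1% of PLN, 26.9% of MYOM1 and 14.3% of ATP2A2, and at most 7.55% of any other member. These 5 were also the genes that varied least over the 16 valve libraries, with a highest level 2.09 times the lowest for TPM1, 5.24 times for MYOM1, 5.77 times for ATP2A2, 6.43 times for TCAP and 7.597 times for PLN. NPPB varied most, by 1238 times, and the other genes with a lowest level above 0 by 9.18 to 84.2 times.

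**Figure D2:**
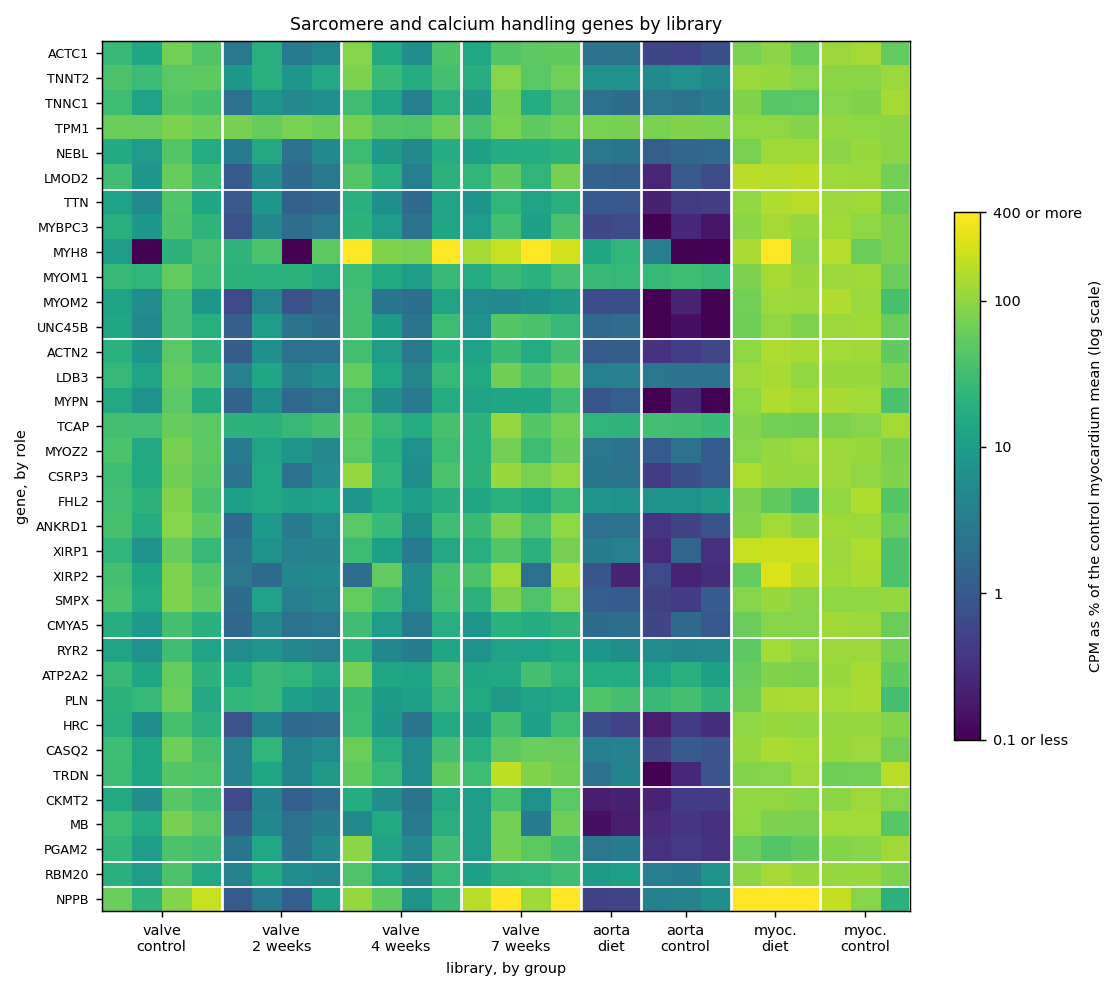
Level of each of the 35 genes in each of the 27 libraries as a percentage of that gene's mean CPM in control myocardium (colour, log scale), with genes grouped by role and libraries by group. TPM1, TCAP, MYOM1, PLN and ATP2A2 stay visible in the aorta, and the 2-week valves are dark for most genes. NPPB is brightest in diet myocardium and in 7-week valve replicates 2 and 4.

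After 2 weeks of diet most members stood lower in the valve than in controls, but 0 of 35 passed the adjusted threshold, which 0.025% of all genes did. In edgeR's quasi-likelihood test 29 of the 35 had an unadjusted p under 0.05, all in the direction of lower, against 2622 of 15973 genes, and the smallest adjusted p was 0.0662. DESeq2 called 25 lower and 0 higher. The median log2 fold change was -2.59 over the 35 genes and 0.018 over all genes. For 19 genes every 2-week library lay below every control library, which 5.6% of all genes showed. Of the 35 genes, 29 had their lowest valve level in a 2-week library, 23 of them in replicate 1, and 16 had their highest in control replicate 3. The ventricular marker share was 0.0329% to 0.161% at 2 weeks, against 0.559% to 2.60% in controls, without overlap. With these markers as a covariate 0 of 35 genes passed, as without it, whereas 26 passed with the atrial markers as a covariate and 19 with only the 2 groups in the fit. Without control replicate 2, 14 genes passed, all lower, and without any other single library 0. For DESeq2 and these other settings the share of all genes is not given here, so their counts cannot be set against 0.025%.

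By role the 2-week medians were -2.23 for thin filament genes, -2.54 for thick filament, titin and M-band genes, -2.87 for Z-disc genes, -1.87 for calcium handling genes and -3.81 for the 3 energy and oxygen genes. Values of the single genes ran from -4.55 ± 1.12 for NPPB and -4.00 ± 0.95 for myoglobin (MB) to 0.0044 ± 0.31 for TPM1 and 0.75 ± 1.52 for MYH8. The 5 genes with a sizeable aortic level were all at the small end, with 0.0044 ± 0.31 for TPM1, -0.65 ± 0.56 for ATP2A2, -0.79 ± 0.49 for TCAP, -0.81 ± 0.40 for MYOM1 and -0.86 ± 0.49 for PLN.

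Between 2 and 7 weeks of diet 25 of the 35 genes rose and 0 fell, where 14.5% of all genes rose. The median log2 fold change was 2.83 for the list and 0.020 for all genes, and for 18 genes every 7-week library lay above every 2-week library, which 13% of all genes showed. Leaving out single libraries gave 18 to 28 genes. Those that rose were 4 of 6 thin filament genes, 4 of 6 thick filament, titin and M-band genes, 10 of 12 Z-disc genes, 3 of 6 calcium handling genes, all 3 energy and oxygen genes and NPPB. The ventricular marker list rose with them, 3 of 3 genes, with MYH7 at 3.68 ± 0.90 (adjusted p = 0.00927), and its share was 0.117% to 3.00% at 7 weeks, against 0.0329% to 0.161% at 2 weeks. Of the 5 atrial markers NPPA rose, by 5.46 ± 1.40 (adjusted p = 0.0122), and the other 4 did not pass. With the ventricular markers as a covariate 3 of the 35 genes passed, NPPB, ANKRD1 and MYH8, and with the atrial markers 1 passed, NPPB. For the covariates and the left-out libraries the share of all genes is not given here, so these counts cannot be set against 14.5%. Whether the drop was particular to the list was not tested.

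NPPB had 139, 51.9, 201 and 449.6 CPM in control valves, 2.48, 7.37, 2.74 and 26.0014 CPM at 2 weeks, 252, 119, 16.7 and 62.6 CPM at 4 weeks and 386, 3065, 289 and 1263 CPM at 7 weeks. Every 7-week library lay above every 2-week library and above every 4-week library, while the 7-week and control libraries overlapped. The log2 fold change of 7 over 2 weeks was 7.23 ± 1.27 (adjusted p = 0.00176), and the adjusted p stayed at 0.00144 to 0.00839 without any single library. It was 4.89 ± 1.13 (adjusted p = 0.0337) with the ventricular covariate and 5.83 ± 1.42 (adjusted p = 0.0329) with the atrial one. Against controls the 7-week value of 2.69 ± 1.02 (adjusted p = 0.113) did not pass, nor did the value of 3.76 ± 1.07 (adjusted p = 0.252) for 7 over 4 weeks in edgeR, which DESeq2 called (adjusted p = 0.0384).

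Set against the ventricular markers of its own library, a measure chosen after the levels were seen and given without a test, NPPB amounted to 1.12%, 0.928%, 0.771% and 3.08% of the summed MYH7, MYL2 and MYL3 level in control valves, 0.753%, 0.497%, 0.262% and 1.61% at 2 weeks, 24.6%, 2.02%, 1.74% and 1.21% at 4 weeks and 6.81%, 10.2%, 24.6% and 6.18% at 7 weeks. All 4 valves at 7 weeks lay above all control and 2-week valves on this measure. A high ratio was not confined to them. In control aortas, whose ventricular markers summed to 93.0, 249 and 212 CPM, it was 8.87%, 3.67% and 6.78%, against 2.05% and 2.30% in diet aortas. In myocardium it was 3.07%, 1.82% and 3.53% on the diet, against 0.563%, 0.275% and 0.0881% in controls. The highest values, both 24.6%, belong to the 2 valve libraries with the highest atrial share.

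Among thin filament genes, LMOD2, which encodes the actin filament elongator leiomodin 2, had 193, 50.8, 353 and 171 CPM in control valves, 6.65, 35.6, 10.96 and 17.3 CPM at 2 weeks, 265, 110.0, 20.9 and 127 CPM at 4 weeks and 143, 321, 140.4 and 443 CPM at 7 weeks. TNNT2, cardiac troponin T, had 1679, 1249, 2089.9 and 2183 CPM in control valves, 357, 823, 361 and 636 CPM at 2 weeks, 3348, 1212, 725 and 1431 CPM at 4 weeks and 749, 3862, 2057 and 2924 CPM at 7 weeks. In both genes the 7-week libraries lay above 2-week ones, except that TNNT2 of 7-week replicate 1 lay below 2-week replicate 2. The changes of 7 over 2 weeks were 4.01 ± 0.80 (adjusted p = 0.00342) for LMOD2 and 2.28 ± 0.56 (adjusted p = 0.00939) for TNNT2. ACTC1 had 1474, 731, 3727 and 2275 CPM in control valves, 153, 975, 158 and 245 CPM at 2 weeks, 4854, 823, 335 and 2147 CPM at 4 weeks and 771, 2349.6, 2802 and 2904 CPM at 7 weeks. Its 2-week replicate 2 lay above 7-week replicate 1, and the change was 2.65 ± 0.83 (adjusted p = 0.0295). Reads of ACTC1 and of the near-identical skeletal actin ACTA1 may have been split uncertainly in the counting. TPM1 did not pass (-0.16 ± 0.31, adjusted p = 0.723), with 2253, 2228, 2843 and 2328 CPM in control valves, 2639, 2128, 2711 and 2315 CPM at 2 weeks, 2703, 1572, 1475 and 2341 CPM at 4 weeks and 1363, 2779.6, 1949 and 2332 CPM at 7 weeks. Its 4 groups overlapped.

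Of the thick filament genes, MYBPC3, cardiac myosin binding protein C, had 873, 395, 1873 and 1024 CPM in control valves, 36.9, 220.2, 89.7 and 126 CPM at 2 weeks, 1003, 457, 106 and 626 CPM at 4 weeks and 464, 1593, 543 and 1744 CPM at 7 weeks. Every 7-week library exceeded every 2-week library, with a change of 3.34 ± 0.75 (adjusted p = 0.00635). Titin had 856, 369, 2882 and 891 CPM in control valves, 68.9, 548, 90.3 and 105 CPM at 2 weeks, 1346, 430.4, 126 and 867 CPM at 4 weeks and 498, 1577, 884 and 1341 CPM at 7 weeks. The lowest 7-week library lay below the highest 2-week library for titin, whose change was 2.57 ± 0.84 (adjusted p = 0.0346). MYOM2 had 364, 174, 1005 and 244 CPM in control valves, 18.6, 129.9, 23.4 and 42.2 CPM at 2 weeks, 965, 74.0, 59.1 and 383 CPM at 4 weeks and 162, 158, 192 and 265 CPM at 7 weeks, and its value of 1.94 ± 0.84 (adjusted p = 0.0955) for 7 over 2 weeks did not pass. It reached its 2 highest levels in control replicate 3 and 4-week replicate 1. UNC45B had 50.6, 20.3, 132 and 73.5 CPM in control valves, 4.87, 38.9, 9.39 and 7.4004 CPM at 2 weeks, 133.7, 36.4, 9.32 and 119.6 CPM at 4 weeks and 26.5, 178, 146 and 102 CPM at 7 weeks, with a change of 3.06 ± 0.90 (adjusted p = 0.0225) and an overlap of the lowest 7-week with the highest 2-week library.

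Of the Z-disc genes, 10 of 12 rose, and the 2 that did not pass were TCAP (1.36 ± 0.50, adjusted p = 0.0543) and FHL2 (0.72 ± 0.41, adjusted p = 0.195). ANKRD1 had 1060.3, 506, 2620.5 and 1513 CPM in control valves, 52.7, 257, 92.9 and 163 CPM at 2 weeks, 1387, 798, 185 and 939 CPM at 4 weeks and 839, 2374, 1186 and 2832 CPM at 7 weeks. SMPX had 95.6, 41.5, 199.8 and 129.9 CPM in control valves, 4.80, 30.3, 8.81 and 10.9 CPM at 2 weeks, 142, 66.6, 14.3 and 82.4 CPM at 4 weeks and 52.1, 196, 102 and 225 CPM at 7 weeks. Both genes were higher in every 7-week than in every 2-week library, by 3.80 ± 0.72 (adjusted p = 0.0027) for ANKRD1 and 3.53 ± 0.76 (adjusted p = 0.00509) for SMPX. XIRP1, an actin-binding protein of the intercalated disc, had 106, 32.6, 269.5 and 117 CPM in control valves, 10.3, 32.98, 17.7 and 19.3 CPM at 2 weeks, 138, 51.5, 14.95 and 70.2 CPM at 4 weeks and 86.1, 201, 97.2 and 339 CPM at 7 weeks. CSRP3, the muscle LIM protein, had 287, 149.7, 619 and 444 CPM in control valves, 22.1, 133.8, 21.6 and 52.3 CPM at 2 weeks, 1013, 221, 59.1 and 364 CPM at 4 weeks and 203, 1051, 717 and 1001 CPM at 7 weeks. Again no 2-week library reached a 7-week one, with changes of 3.26 ± 0.74 (adjusted p = 0.00663) for XIRP1 and 3.85 ± 0.88 (adjusted p = 0.00668) for CSRP3. The other 6 that rose, ACTN2, LDB3, MYPN, MYOZ2, XIRP2 and CMYA5, had log2 fold changes of 2.64 to 4.51.

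Of the calcium handling genes, TRDN, HRC and CASQ2 rose, while RYR2, ATP2A2 and PLN did not pass. TRDN, triadin, which links the ryanodine receptor to calsequestrin, had 29.3, 13.2, 44.9 and 40.1 CPM in control valves, 3.95, 13.3, 4.24 and 8.65 CPM at 2 weeks, 53.4, 26.01, 5.93 and 52.5 CPM at 4 weeks and 29.9, 179, 83.7 and 65.5 CPM at 7 weeks. HRC, a calcium-binding protein of the reticulum lumen, had 109, 36.2, 202 and 119.8 CPM in control valves, 4.72, 24.0, 10.3 and 11.2 CPM at 2 weeks, 168, 47.3, 13.8 and 87.5 CPM at 4 weeks and 52.3, 197, 63.7 and 171 CPM at 7 weeks. For both genes the 7-week libraries lay above all 2-week libraries, with changes of 3.73 ± 0.75 (adjusted p = 0.00346) for TRDN and 3.41 ± 0.79 (adjusted p = 0.00718) for HRC. Calsequestrin 2 (CASQ2) also rose, by 2.47 ± 0.75 (adjusted p = 0.0256). RYR2 had 156, 88.8, 384 and 157 CPM in control valves, 66.6, 93.6, 58.3 and 46.3 CPM at 2 weeks, 255, 59.8, 41.8 and 169 CPM at 4 weeks and 86.4, 146, 150.1 and 197 CPM at 7 weeks. ATP2A2 had 998, 508, 2098 and 802 CPM in control valves, 517, 989.9, 859 and 551 CPM at 2 weeks, 2626, 491, 455 and 1269 CPM at 4 weeks and 495, 515, 1284 and 867 CPM at 7 weeks. Neither RYR2 (1.18 ± 0.56, adjusted p = 0.124) nor ATP2A2 (0.11 ± 0.56, adjusted p = 0.896) nor PLN (-0.50 ± 0.49, adjusted p = 0.465) passed, and the highest ATP2A2 levels belonged to 4-week replicate 1 and control replicate 3. Whether the first 3 genes differed from the other 3 was not tested.

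Of the energy and oxygen genes, CKMT2 had 183, 69.2, 534 and 386 CPM in control valves, 7.10, 47.6, 14.3 and 22.3 CPM at 2 weeks, 193, 69.4, 28.9 and 167 CPM at 4 weeks and 111, 418, 78.0 and 538 CPM at 7 weeks. MB had 208, 114, 499 and 342 CPM in control valves, 7.58, 31.7, 15.3 and 23.1 CPM at 2 weeks, 33.5, 105, 19.8 and 127 CPM at 4 weeks and 69.5, 491, 21.5 and 442 CPM at 7 weeks. The change of 7 over 2 weeks was 3.80 ± 0.88 (adjusted p = 0.00728) for CKMT2, without overlap, and 3.90 ± 0.94 (adjusted p = 0.00898) for MB, whose 7-week replicate 3 lay within the 2-week range. PGAM2, the muscle phosphoglycerate mutase, rose by 2.94 ± 0.90 (adjusted p = 0.0263). RBM20 had 36.8, 18.3, 75.2 and 28.7 CPM in control valves, 7.82, 30.8, 11.1 and 8.6005 CPM at 2 weeks, 78.6, 23.0, 8.78 and 47.7 CPM at 4 weeks and 21.7, 41.4, 45.3 and 59.2 CPM at 7 weeks, and its value of 1.603 ± 0.64 (adjusted p = 0.0722) did not pass.

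At 4 weeks the median log2 fold change of the list against controls, -0.71, lay between those of 2 weeks, -2.59, and 7 weeks, 0.098. Single libraries did not keep this order. The summed share was 0.488% to 2.77% at 4 weeks, against 0.530% to 0.880% at 2 weeks and 0.893% to 3.13% at 7 weeks. Against 2 weeks 4 of 35 genes rose and 0 fell, where 3.14% of all genes rose. They were MYH8 (4.97 ± 1.27, adjusted p = 0.0388), LMOD2 (2.84 ± 0.76, adjusted p = 0.0462), CMYA5, the myospryn gene (2.39 ± 0.64, adjusted p = 0.0467), and ANKRD1 (2.49 ± 0.68, adjusted p = 0.0498). The count was 0 without 4-week replicate 1 or without 2-week replicate 1, 3 or 4, it was 1 without 4-week replicate 2, 2 without 4-week replicate 4 and 7 without 4-week replicate 3 or 2-week replicate 2. From 4 to 7 weeks 0 of 35 genes passed in edgeR, where 0.1% of all genes did. By unadjusted p under 0.05 there were 5 members and 1921 of all genes, and DESeq2 called NPPB alone.

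Against controls, 2 of 35 genes passed at 4 weeks, where 2% of all genes did, and 1 at 7 weeks, where 7.79% did. FHL2, a LIM-domain adaptor of the Z-disc, had 165, 111, 421 and 188 CPM in control valves, 54.7, 72.7, 58.9 and 62.9 CPM at 2 weeks, 40.6, 85.3, 53.8 and 91.4 CPM at 4 weeks and 66.8, 103, 72.2 and 153 CPM at 7 weeks. All 2-week and all 4-week libraries lay below all controls, and 7-week replicate 4 lay above the lowest control. FHL2 fell by 1.90 on the log2 scale at 4 weeks (SE 0.42, adjusted p = 0.0304), while the values were -1.89 ± 0.42 (adjusted p = 0.0662) at 2 weeks and -1.17 ± 0.41 (adjusted p = 0.0856) at 7 weeks. At 4 weeks the adjusted p ranged over 0.016 to 0.123 when single libraries were left out, and it passed without control replicate 1 or 4-week replicate 4 only. With the ventricular markers as a covariate the 4-week value was -1.07 ± 0.35 (adjusted p = 0.331).

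MYH8 had 0.142, 0, 0.296 and 0.487 CPM in control valves, 0.310, 0.531, 0 and 0.700 CPM at 2 weeks, 39.5, 1.16, 1.07 and 10.1 CPM at 4 weeks and 1.83, 2.72, 21.4 and 3.15 CPM at 7 weeks. The 2 highest levels, 39.5 and 21.4 CPM, were those of the 2 libraries with the highest atrial share, 4-week replicate 1 and 7-week replicate 3, followed by 4-week replicate 4, and all 4-week and 7-week libraries lay above all controls. The rise over controls was 5.72 ± 1.38 (adjusted p = 0.0445) at 4 weeks and 4.92 ± 1.36 (adjusted p = 0.0393) at 7 weeks. With single libraries left out its adjusted p was 0.0323 to 0.153 at 4 weeks, where it passed only without 4-week replicate 4, and 0.0271 to 0.117 at 7 weeks, where it passed only without 7-week replicate 1. The atrial marker list rose too, with 3 of 5 genes at 4 weeks and 4 of 5 at 7 weeks, of which NPPA rose by 9.65 ± 1.72 (adjusted p = 0.00686) at 7 weeks. With the atrial markers other than MYH6 as a covariate the MYH8 value was -1.58 ± 1.21 (adjusted p = 0.642) at 4 weeks and -1.97 ± 1.19 (adjusted p = 0.502) at 7 weeks. Control valves held 0 to 6 MYH8 counts a library, and reads shared with the other myosin heavy chain genes may have been assigned uncertainly.

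**Figure D3:**
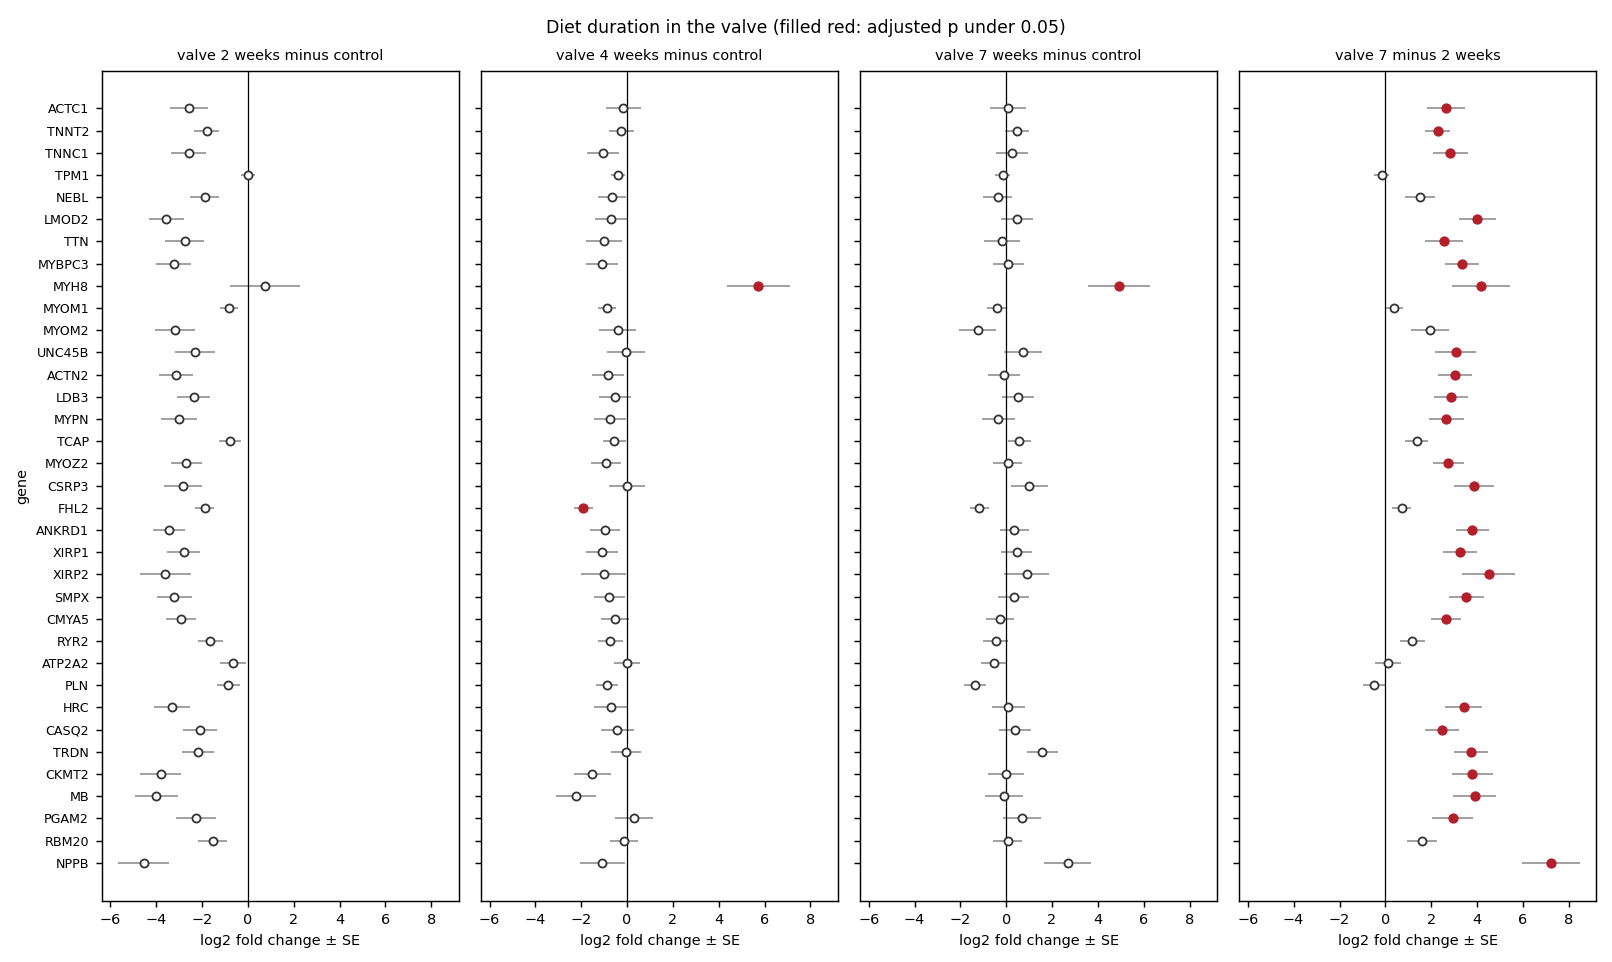
Log2 fold change with its standard error for the 35 genes in 4 valve comparisons, with genes ordered by role and filled red points for an adjusted p under 0.05. At 2 weeks nearly all points lie below 0 and none is filled, FHL2 and MYH8 are filled at 4 weeks and MYH8 at 7 weeks, and 25 genes are filled for 7 against 2 weeks.

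The remaining muscle genes of the pathway did not all follow the members. Of all genes tested, 14.5% rose from 2 to 7 weeks. The share of all genes that fell is not given here, so the counts of falling genes below have no such reference. Between 2 and 7 weeks, 13 of 15 tested muscle energy genes rose and 0 fell, for example ENO3, the muscle enolase, by 4.45 ± 0.83 (adjusted p = 0.0025), and the cytochrome oxidase subunit genes COX6A2, by 3.90 ± 0.86 (adjusted p = 0.00581), and COX7A1, by 3.66 ± 0.81 (adjusted p = 0.00587). Of 24 tested further sarcomere and Z-disc genes 12 rose and 3 fell. TRIM54, a ubiquitin ligase of muscle, rose by 3.93 ± 0.82 (adjusted p = 0.00439), and those that fell were PDLIM3 (-1.45 ± 0.17, adjusted p = 0.000444), SVIL (-1.46 ± 0.28, adjusted p = 0.0028) and FHL1 (-0.73 ± 0.24, adjusted p = 0.0342). Of 20 tested excitation and calcium genes 5 rose and 6 fell, with ASPH, whose locus also encodes junctin, at -0.91 ± 0.18 (adjusted p = 0.00364), S100A1, a calcium sensor of cardiomyocytes, at 3.21 ± 0.75 (adjusted p = 0.0078) and JPH2, the junctophilin that holds the calcium release unit together in heart, at -1.45 ± 0.34 (adjusted p = 0.00837). In the same comparison 7 of 8 smooth muscle markers fell and 1 rose, and their summed share was 0.888% to 1.52% at 7 weeks, against 2.95% to 4.56% at 2 weeks. Erythroid markers rose, 4 of 4, and macrophage markers rose, 7 of 7, as did 3 of 5 tested skeletal muscle and 3 of 6 endothelial markers. The part of these other cells in the member values was not tested.

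The makeup of the list differed between valve libraries that were rich in ventricular and in atrial markers, given here as single libraries and without a test. XIRP2, a Xin repeat protein, stood at 1.08 CPM in 4-week replicate 1 and 1.19 CPM in 7-week replicate 3, against 69.8 and 78.3 CPM in 7-week replicates 2 and 4. MB stood at 33.5 and 21.5 CPM in the same first pair, against 491 and 442 CPM in 7-week replicates 2 and 4. ACTC1, in contrast, had 4854 and 2802 CPM in the first pair, against 2349.6 and 2904 CPM in the second. Low XIRP2 and MB were not particular to the first pair. In 4-week replicate 3, with shares of 0.0956% ventricular and 0.0678% atrial, they stood at 3.26 and 19.8 CPM. In the 2-week valves they stood at 0.929 to 2.90 CPM and 7.58 to 31.7 CPM. ACTC1 was at 335 CPM in 4-week replicate 3 and at 153 to 975 CPM in the 2-week valves. FHL2 was lowest of all 16 valves in 4-week replicate 1, whereas ACTC1, MYH8, ATP2A2, PGAM2 and RBM20 were highest there. The other libraries with the highest level of some member were control replicate 3 for 16 genes, 7-week replicate 2 for 8 and 7-week replicate 4 for 6.

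In the aorta 3 of the 33 genes tested rose on the diet and 0 fell, where 0.132% of all genes rose. PGAM2 had 12.7 and 15.9 CPM in diet aortas, against 1.56, 1.86 and 1.54 CPM in control aortas. UNC45B had 6.71 and 7.58 CPM in diet aortas, against 0.261, 0.559 and 0.405 CPM in control aortas. ACTC1 had 128 and 131 CPM in diet aortas, against 31.02, 28.8 and 41.3 CPM in control aortas. The diet libraries lay above all controls in each of the 3 genes, with log2 fold changes of 3.15 ± 0.21 (adjusted p = 0.0152), 4.11 ± 0.34 (adjusted p = 0.0249) and 1.99 ± 0.19 (adjusted p = 0.0344) in that order. UNC45B rested on 3 to 9 counts in the control libraries. XIRP2 and MYH8 were too low to be tested.

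Of the 33 genes, 24 were higher in both diet aortas than in all 3 controls, which 13.3% of all genes showed, and 5 were lower in both, which 20.4% showed. The 5 were NPPB, TCAP, MB, TNNC1 (cardiac troponin C) and CKMT2. NPPB had 1.22 and 1.27 CPM in diet aortas, against 8.25, 9.13 and 14.3 CPM in control aortas, with a value of -3.04 ± 0.36 (adjusted p = 0.056). MB had 0.959 and 1.27 CPM in diet aortas, against 1.91, 2.55 and 2.11 CPM in control aortas, and CKMT2 had 2.23 and 2.47 CPM in diet aortas, against 2.54, 4.86 and 4.86 CPM in control aortas. The values were -0.92 ± 0.35 (adjusted p = 0.379) for MB and -0.74 ± 0.37 (adjusted p = 0.475) for CKMT2, none of the 5 passed, and their share of the members was not above that of all genes. The median log2 fold change was 0.86 over the 33 genes, against -0.025 over all genes.

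Atrial and ventricular muscle markers in the aorta differed in direction. Of the 5 atrial markers 4 rose, with MYH6 at 577 and 647 CPM in diet aortas, against 0.564, 0.939 and 0.654 CPM in controls, and MYL4 at 84.5 and 76.8 CPM, against 0.695, 0.993 and 0.405 CPM. The summed atrial share was 0.0689 to 0.0750% in diet aortas, against 0.000135 to 0.000293% in controls, where MYL7 and SLN were at 0 in 2 of 3 libraries. The 3 ventricular markers had values of -2.45 to -1.48 and did not pass, with a share of 0.00553 to 0.00591% in diet aortas, against 0.00930 to 0.0249% in controls. The part of these markers in the member values was not tested. With the 2 diet libraries averaged as 1, a setting added after the data were seen, 0 of the 33 genes passed. The count was 0 without either diet library or control replicate 1, 10 without control replicate 2 and 6 without control replicate 3. In DESeq2's test on all 5 libraries 15 genes rose and NPPB fell. The share of 0.132% of all genes belongs to the main edgeR fit and not to these other settings.

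In the myocardium 0 of 35 genes passed on the diet in edgeR, where 0.0848% of all genes did, and 4 members and 1252 of 14151 genes had an unadjusted p under 0.05. The median log2 fold change was 0.18 over the list and -0.010 over all genes. NPPB had 2003, 1387 and 2702 CPM in diet myocardium, against 442, 208 and 48.8 CPM in control myocardium. Every diet library lay above every control, with a log2 fold change of 3.20 ± 0.77 (adjusted p = 0.22), which DESeq2 called (adjusted p = 1.16e-05). The adjusted p of edgeR was 0.134 to 0.616 when single libraries were left out. The skeletal actin ACTA1, no member but part of the skeletal muscle list, had 4299, 4302 and 4067 CPM in diet myocardium, against 1545, 1162 and 543 CPM in control myocardium, and of the 4 tested skeletal muscle markers 0 passed.

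In the myocardium 3 other genes showed no overlap. LMOD2 had 1044, 970.3 and 1029 CPM in diet myocardium, against 719.6, 689 and 417 CPM in control myocardium. XIRP1 had 894, 975 and 969.8 CPM in diet myocardium, against 533, 682 and 187 CPM in control myocardium. PGAM2 had 282, 204 and 251 CPM in diet myocardium, against 399.6, 433 and 586 CPM in control myocardium. Diet libraries lay above controls for LMOD2 and XIRP1, which 3.73% of all genes showed, and below them for PGAM2, which 11.4% showed, with values of 0.85 ± 0.32 (adjusted p = 0.468), 1.10 ± 0.47 (adjusted p = 0.559) and -0.78 ± 0.26 (adjusted p = 0.384). For titin and ATP2A2 the diet and control libraries overlapped, and neither gene passed. Titin had 7140.1, 10232 and 11319.6 CPM in diet myocardium, against 7885, 8408 and 4297 CPM in controls (0.56 ± 0.39, adjusted p = 0.819). ATP2A2 had 2182, 3034 and 2865 CPM in diet myocardium, against 4081, 5087 and 1954 CPM in controls (-0.38 ± 0.41, adjusted p = 0.916). Control replicate 3 was the low library in both.

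**Figure D4:**
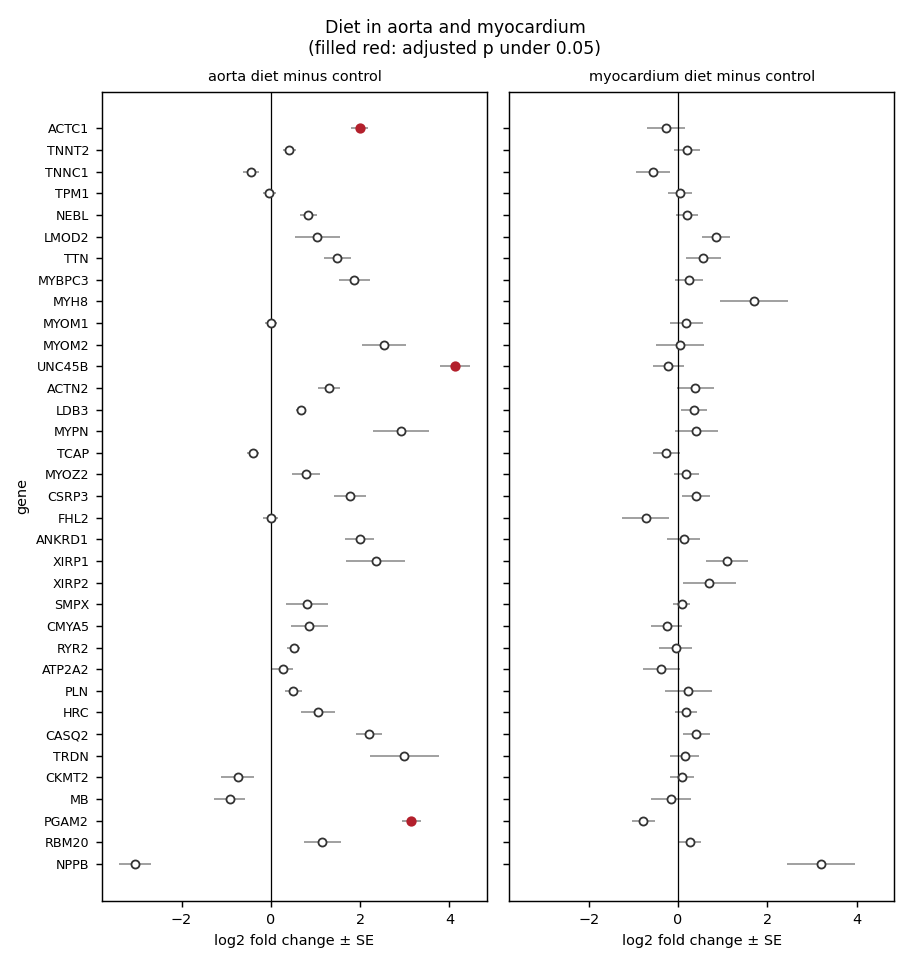
Log2 fold change of diet over control with its standard error for the 35 genes in aorta (33 tested; 2 diet and 3 control libraries) and myocardium (3 and 3), with filled red points for an adjusted p under 0.05. UNC45B, PGAM2 and ACTC1 are filled in the aorta and none in the myocardium, and NPPB lies at -3.04 in aorta and at 3.20 in myocardium.

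The diet effect in 7-week valve and in myocardium was compared in 1 fit with an interaction term, which treats libraries of a shared animal as independent. For 0 of the 35 genes did the effects differ at an adjusted p under 0.05, which 0.639% of all genes did, and 0 members had an unadjusted p under 0.05, against 2517 of 16581 genes. The difference for NPPB was -0.56 ± 1.42 (adjusted p = 0.887), and the smallest adjusted p belonged to PLN, at -1.61 ± 0.79 (adjusted p = 0.343). The standard errors of the 35 differences ran from 0.44 to 1.76. Differences well beyond 1 standard error were not called either, such as that of PLN, and the largest difference was 3.19. The absence of calls therefore does not show that the effects were equal.

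Valve and myocardium libraries shared an animal in 5 cases. In both control animals all 35 genes were higher in myocardium than in valve. In the diet animals this held for 35 genes in the animal of 7-week valve replicate 1, for 31 in that of replicate 4 and for 27 in that of replicate 2. In the animal of replicate 2 the 8 genes higher in the valve included NPPB, at 3065 CPM in valve and 2702 CPM in myocardium, TNNT2, at 3862 and 3770 CPM, and TRDN, at 179 and 119 CPM. In 1 diet animal with valve and aorta, at 2 weeks, 16 of the 35 genes were higher in the aorta than in the valve. The share of all genes that were higher in the same tissue is not given here, so the counts within animals have no such reference.

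**Figure D5:**
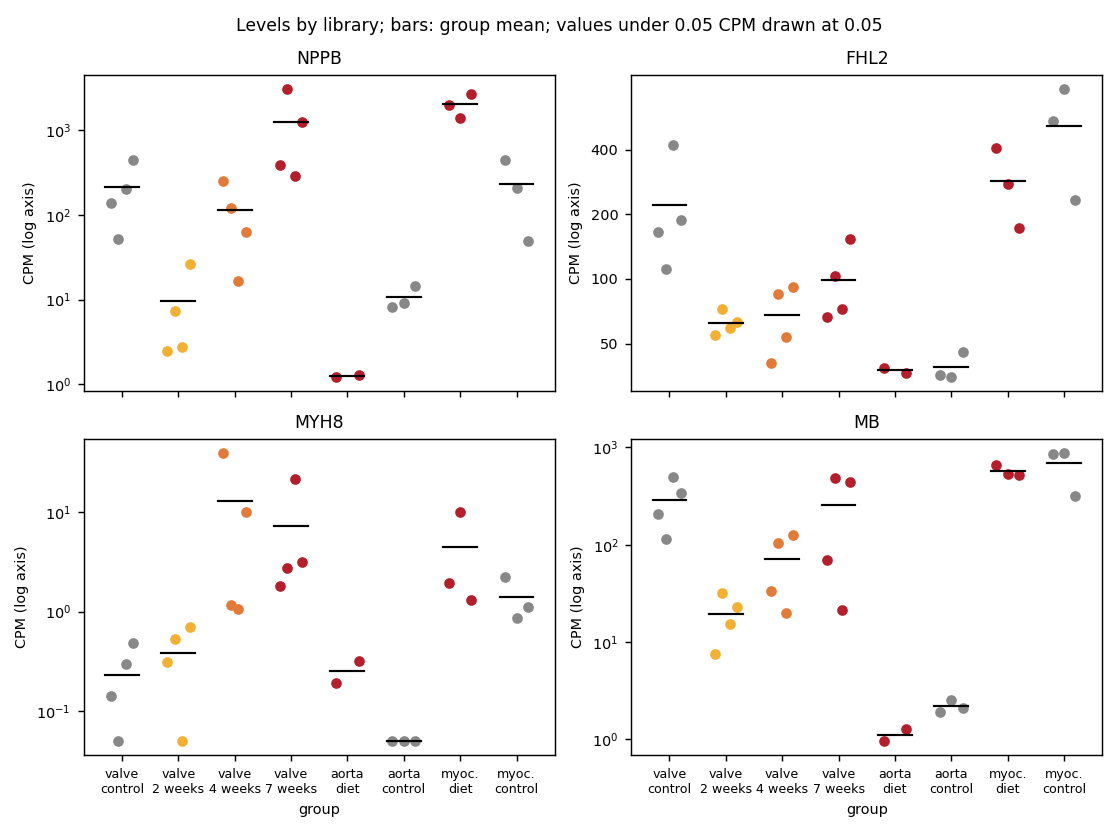
CPM (log axis) of NPPB, FHL2, MYH8 and MB in every library, 1 point per library, with a bar at the group mean; values under 0.05 CPM are drawn at 0.05. NPPB is high in 7-week valves and diet myocardium and low in 2-week valves and diet aortas, and MB spans 21.5 to 491 CPM within the 7-week valves.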

How the data were processed

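The authors deposited expected counts per gene, estimated with RSEM, with 1 full table for each tissue and a shorter valve table that lacks 346 genes, none of them a member. Per the labels' protocols, RNA was extracted with Trizol and sequenced as single-end reads from a directional kit. The tools, per the submitters' processing notes, comprise STAR 2.7.8a, RSEM 1.3.3, edgeR 3.42.4, Trim Galore 0.6.6 and FastQC 0.11.9. For genome build, annotation and strand setting, nothing was given in the sources used here. The full tables were used here. The deposited expected counts were rounded, and members were matched by symbol or gene number.

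Tests were edgeR 4.0.16 quasi-likelihood F tests (R 4.3.3, limma 3.58.1), two-sided, after filterByExpr (minimum count 10, minimum total 15) and TMM scaling, with p-values adjusted over every gene in the fit by Benjamini-Hochberg and called under 0.05. All groups of a tissue shared 1 fit. Standard errors are the log2 fold change divided by the square root of F. DESeq2 1.42.0 was an alternative, as was limma voom with the animal as a block where tissues shared animals. CPM used the library total, and the scripts were tested on simulated data. Floors of 3 counts cover counting error only, whereas the standard errors include the spread between libraries.

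Members and lists were chosen with earlier results of these data known. Values per library are given for 3 sets of members. The first is the member of each role with the highest mean CPM in control myocardium. The second is the 12 members with the smallest adjusted p in any comparison within a tissue. The third is the 4 members with the largest and the 4 with the smallest percentage of the myocardial level in control valve. FHL2, PGAM2, XIRP2 and the genes shown by library in aorta and myocardium outside this rule, and the NPPB ratio, were chosen after their values were seen.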

Additional observations from a re-analysis of the deposited data

Results flagged for a closer look

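Each of the 35 genes and their summed share were examined in each of the 4 valve groups. In 9 of these 144 cases, 6.25% where chance gives about 1 in 20, the highest library stood far from the other 3. Of these, 6 concerned 2-week valve replicate 2. There ACTC1 stood at 975 CPM, against 153 to 245 CPM in the other 2-week valves, and TTN at 548 CPM, against 68.9 to 105 CPM. UNC45B stood at 38.9 CPM, against 4.87 to 9.39 CPM, and MYPN, a titin and nebulin binding Z-disc gene, at 11.7 CPM, against 2.63 to 4.00 CPM. CASQ2 stood at 195 CPM, against 30.9 to 45.9 CPM, and RBM20 at 30.8 CPM, against 7.82 to 11.1 CPM. This library also had the highest atrial marker share of its group, 0.253%, against 0.0166% to 0.0371%, while its ventricular share of 0.148% lay within the range of the others; the part of this in the 6 values was not tested. MYH8 stood at 21.4 CPM in 7-week valve replicate 3, against 1.83 to 3.15 CPM. MYPN stood at 59.6 CPM in 7-week valve replicate 4, against 22.4 to 25.1 CPM. TPM1 stood at 2843 CPM in control valve replicate 3, against 2228 to 2328 CPM.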

How the results depend on the processing

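Counts of members past the threshold moved most with the test and with the markers of heart muscle in the model, and the causes were not tested. The shares of all genes given above belong to the main edgeR fit. They are not given for the settings below, so these counts cannot be set against them. DESeq2 called 25 genes at 2 weeks against control, 3 at 7 weeks against control, 17 for 4 over 2 weeks, 1 for 7 over 4 weeks, 16 in aorta and 1 in myocardium, against 0, 1, 4, 0, 3 and 0 in edgeR. With only the 2 groups compared in the fit the counts were 19 at 2 weeks against control, 0 at 4 weeks against control and 0 for 4 over 2 weeks. With the ventricular covariate they were 0 at 4 and at 7 weeks against control, 1 for 4 over 2 weeks and 3 for 7 over 2 weeks. With the atrial covariate they were 26 at 2 weeks, 0 at 4 weeks and 0 at 7 weeks against control, 0 for 4 over 2 weeks and 1 for 7 over 2 weeks. Log2 fold changes turned negative for MYH8 with the atrial covariate, to -1.58 at 4 weeks and -1.97 at 7 weeks against control, and with the ventricular covariate for MB, to -0.023, and XIRP2, to -0.30, for 7 over 2 weeks. Replicate numbers did not pair the libraries: deviations of same-numbered valves correlated at -0.34 to 0.126, aortas at -0.0786 and -0.0106, and myocardium at -0.225 to 0.0235. With the replicate block the counts were 0 at 4 weeks and 0 at 7 weeks against control, 0 for 4 over 2 weeks, 20 for 7 over 2 weeks and 10 in aorta. Averaging the 2 diet aortas gave 0. Leaving out single libraries gave 0 to 14 genes at 2 weeks, 0 to 2 at 4 weeks and 0 to 1 at 7 weeks against control, 0 to 7 for 4 over 2 weeks, 18 to 28 for 7 over 2 weeks, 0 to 10 in aorta, 24 to 34 for control myocardium over valve, 26 to 29 for control valve over aorta and 33 to 35 for control myocardium over aorta. With the animal as a block 34 genes were higher in control myocardium than in control valve and 0 differed in the interaction. Over 542 settings of 35 tested single-gene results, 379 kept direction and call, 159 lost the call and 4 reversed. Depth limits MYH8 most, with 0 to 6 counts in each control valve.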
